A study of Mus musculus with 3 samples.

Results

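The choroid plexus secretory and transport genes Ttr, Enpp2, Kl, Clic6, Folr1, Aqp1, Kcne2, Slc4a5, Igf2 and Igfbp2 were followed through a single-cell RNA-seq table of the medial vestibular nucleus (MVN) of the mouse. They are 10 of its 28676 genes and were chosen by name. Each was measured in plexus cells, defined as cells in which Ttr held at least 5% of the unique molecular identifiers (UMIs, 1 per captured RNA molecule), in ependymal-like cells, and in all other cells. Cells came from the MVN on the side of a unilateral labyrinthectomy (ULI, destruction of the right inner ear), from the MVN of the opposite side of such mice (ULC), and from control mice. All were C57BL/6 mice by the labels (C57BL/6J in the methods) operated on at postnatal day 20 and killed 1 day later, and the methods state that in control mice the tympanic bulla was opened and the inner ear left in place. The treatment label names labyrinthectomy for all 3 samples, so the control group rests on its source label and the methods. Tissue of 10 control and 11 operated mice was pooled into 1 library per group, so no difference between groups has a replicate check and no p-value is given. Intervals are 95% intervals and cover counting error only.

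The choroid plexus is a folded epithelium that hangs in the ventricles and secretes cerebrospinal fluid. Its cells release carrier proteins and hormones into that fluid and move ions, water, folate and bicarbonate across their membranes. The hindbrain ventricle, which holds a plexus of its own, lies directly above the vestibular nuclei, and its wall is lined by ciliated ependymal cells. Of the genes followed here, Ttr encodes transthyretin, a carrier of thyroxine. Enpp2 encodes autotaxin, a secreted enzyme that makes lysophosphatidic acid, and is also a gene of myelinating oligodendrocytes. Kl encodes klotho, the co-receptor of the hormone FGF23, which is also shed into the fluid. Igf2 is a growth factor and Igfbp2 a protein that binds it. Folr1 is a folate receptor, Aqp1 a water channel, Clic6 a member of the chloride intracellular channel family, Kcne2 an accessory subunit of potassium channels, and Slc4a5 a sodium bicarbonate cotransporter.

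The table held 57216827 UMIs in 14876 barcodes, of which 13964 with at least 200 genes were kept as cells. They were 4813 ULI, 4544 ULC and 4607 control cells, with a median of 2100, 931 and 3177 UMIs. Barcodes are named by running numbers, so cells shared between libraries could not be counted. The platform is given differently by the sources, as 10X, Drop-seq or BD Rhapsody.

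Plexus cells numbered 1334. They made up 5.07% of ULI cells (244 cells, 4.47 to 5.73%), 23.0% of ULC cells (1047 cells, 21.8 to 24.3%) and 0.933% of control cells (43 cells, 0.676 to 1.26%). The 3 intervals did not overlap, but how much plexus was taken along with the nucleus at dissection cannot be told apart from the group, since each group is 1 library. Ttr held between 5.005 and 24.4% of the UMIs of ULI plexus cells, between 5.01 and 35.6% in ULC and between 5.87 and 20.5% in control. Just outside the cutoff, the highest cells had 4.997%, 4.98% and 4.12% in ULI, ULC and control. Depth differed strongly, with a median of 3828.5 UMIs in ULI, 738 in ULC and 10712 in control plexus cells.

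The plexus label was checked against markers that are not among the 10 genes. Cells were clustered without the 10 genes, and 242 of 244 ULI and 1039 of 1047 ULC plexus cells fell in the 2 clusters that carry choroid plexus markers. In control, only 23 of 43 did, and the other 20 fell in the cluster that carries ependymal markers. In plexus-cluster cells, Otx2, the transcription factor that specifies the plexus, had 1434 CPM (counts per 1000000 UMIs of the cells summed) in ULI, 924 in ULC and 1422 in control, while the ciliary genes Tmem212 and Ccdc153 had 0 UMIs in ULI and control and 2 and 0 UMIs in ULC. Of the other 6 ependymal markers on the list, Rarres2 was under 1 CPM in ULI and ULC. In control it had 0 UMIs, which allows up to 11.7 CPM. The rest had up to 62.6 CPM in ULI (Rsph1), 130 in ULC (Foxj1) and 144 in control (Dynlrb2). The 20 control cells are described separately, and ratios to control are given with and without them where this changes a sign or a call. Of the plexus-cluster cells, 132 ULI, 299 ULC and 20 control cells lay in a deep cluster (median 7891, 8177 and 12377.5 UMIs), and 110, 740 and 3 cells in a shallow one (median 700, 634 and 760 UMIs).

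Among the secreted proteins, Ttr set the scale by rule, with 103977 CPM in ULI, 140739 in ULC and 113897 in control plexus cells. Enpp2 came next, with 66399 CPM in ULI, 54517 in ULC and 21405 in control. No other member passed 1400 CPM in any library. Igfbp2 had 839 CPM (790 to 891) in ULI, 1351 (1312 to 1392) in ULC and 820 (741 to 906) in control. Kl had 1285 CPM (1224 to 1348) in ULI and 934 (902 to 968) in ULC, against 67.5 (46.2 to 95.3) in control, where its level was the lowest of the 9 measured genes. Igf2 was barely counted. It had 0 UMIs in ULI, 2 in ULC and 0 in control plexus cells, which allows up to 2.31 CPM in ULI and 6.33 CPM in control, and 11 UMIs in the whole table. A second gene model, Gm49394, overlaps Igf2 on the same strand in the GENCODE annotation of this assembly and is not a row of the table. How overlapping genes were counted is not given in the sources used here, and its part in the low Igf2 count was not tested.

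The transport genes were lower. Clic6 had 800 CPM (752 to 850) in ULI, 702 (673 to 731) in ULC and 565 (500 to 637) in control plexus cells. Kcne2 had 587 CPM (546 to 630), 387 (366 to 409) and 456 (397 to 520) in ULI, ULC and control. Slc4a5 had 373 CPM (340 to 407), 553 (528 to 579) and 601 (533 to 675) in the same order. Over all plexus cells, each of these genes stayed within 2-fold between libraries. Aqp1 had 186 CPM (163 to 211) in ULI, 410 (389 to 433) in ULC and 297 (250 to 351) in control. Folr1 had 71.6 CPM (57.8 to 87.7) in ULI, 486 (463 to 510) in ULC and 173 (138 to 215) in control, the widest spread of the transport genes. CPM was not divided by transcript length, so the order of different genes is an order of UMIs and not of transcripts per length.

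**Figure D1:**
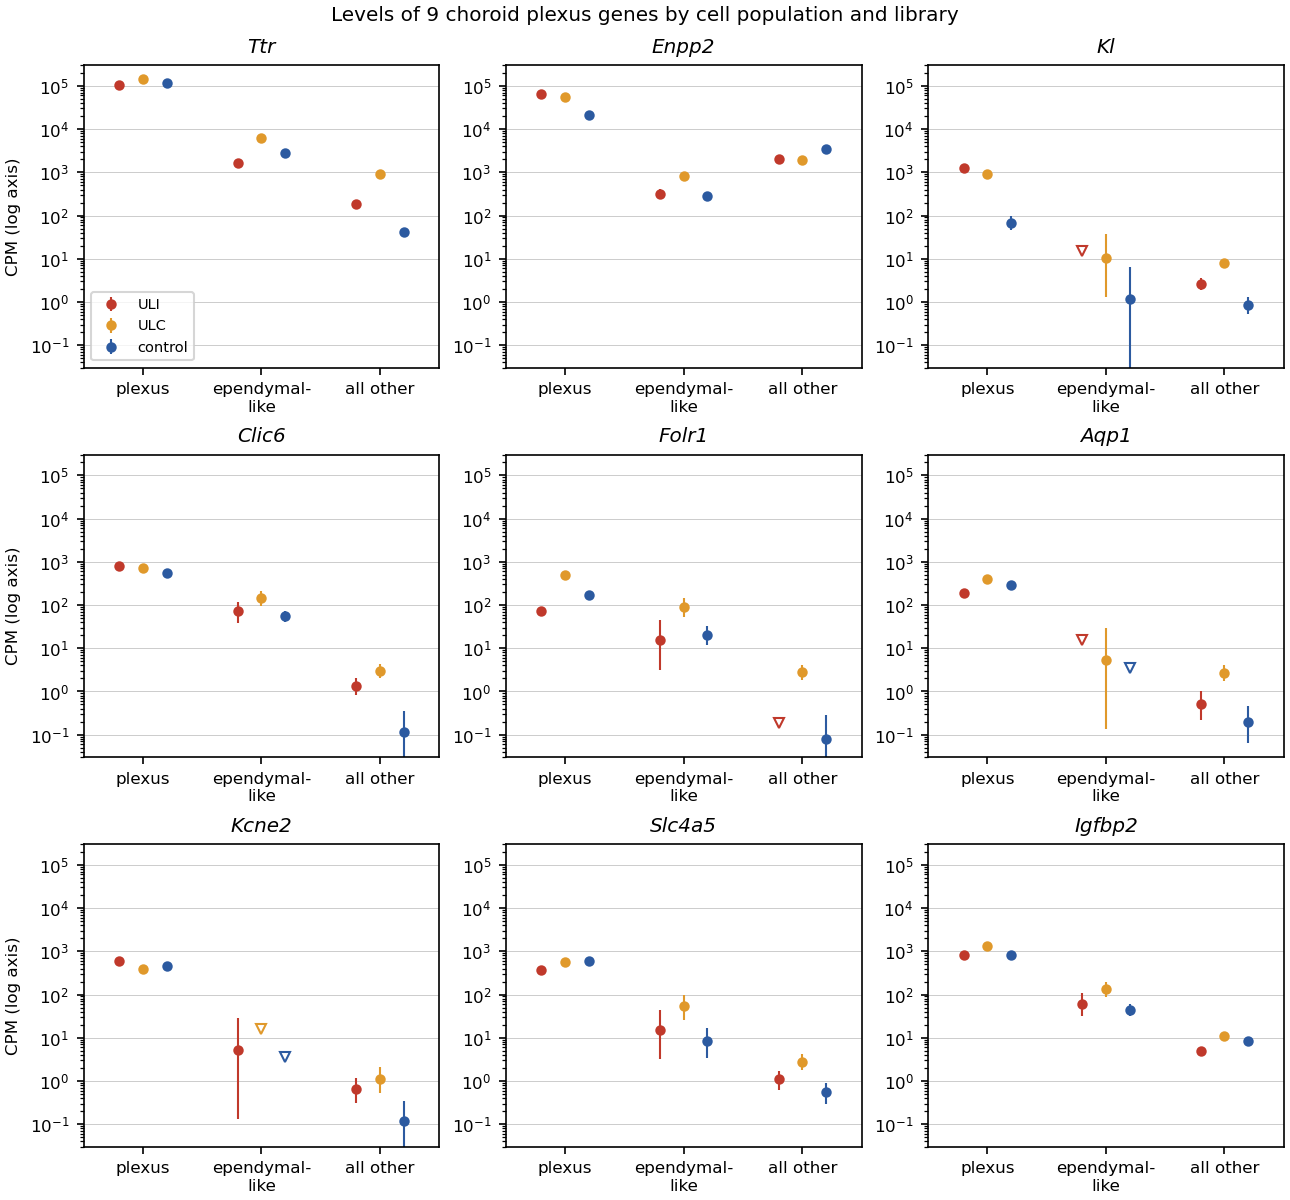
Levels of 9 genes (Igf2 left out) in CPM on a log axis, in plexus cells, ependymal-like cells and all other cells of the ULI, ULC and control libraries. Points are UMI sums per 1 library, bars are 95% Poisson intervals and open triangles mark the limit that a count of 0 allows. Kl in control plexus cells, at 67.5 CPM, sits far below the 1285 and 934 CPM of the ULI and ULC libraries.

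The genes separated plexus cells from the rest of the tissue. Of the 9 genes measured, 9 in ULI, 9 in ULC and 8 in control were at least 10-fold higher in plexus cells than in all other cells, where 2.07%, 2.66% and 2.69% of all genes were. Ttr is counted among these genes, but it was chosen by the rule and its fold is not a result. Kcne2 was 923-fold higher in ULI and 345-fold in ULC, and in control all other cells held 3 UMIs of it, for a log2 ratio of 11.92 (10.35 to 14.21). Aqp1 was 365-fold higher in ULI, 152-fold in ULC and 1517-fold in control, and Folr1 was at least 375-fold higher in ULI, where all other cells had 0 UMIs, and 173-fold in ULC. Enpp2 was the exception, at 32.5-fold in ULI, 28.5-fold in ULC and 6.18-fold in control. In plexus-cluster cells alone, Enpp2 had 37416 CPM in control, and all 8 genes measured there, Enpp2 among them, were at least 10-fold higher. Plexus cells held 96.0% of all Kcne2 UMIs of the ULI library, 96.9% of the ULC library and 98.6% of the control library, and 94.5%, 96.0% and 95.3% of all Aqp1 UMIs. For Igfbp2 the shares were 89.2%, 95.4% and 60.0%, and for Kl 92.3%, 93.5% and 57.1%.

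Against ependymal-like cells (60 ULI, 50 ULC and 136 control cells), 8 of 9 genes in ULI, 7 of 9 in ULC and 7 of 8 in control were at least 10-fold higher in plexus cells, where 2.37%, 0.761% and 0.931% of all genes were. Ttr is again among the genes counted, and its place there is fixed by the rule. Folr1 fell short in all 3 libraries, at 4.69-fold, 5.40-fold and 8.63-fold, and Clic6 in ULC, at 4.91-fold. Folr1 in ULI rests on 3 UMIs in ependymal-like cells, with a log2 ratio of 2.23 (0.64 to 4.53). Kl was at least 84.1-fold higher in ULI plexus cells, with 0 UMIs in 60 ependymal-like cells, and Enpp2 was 210.3-fold higher in ULI, 66.5-fold in ULC and 76.3-fold in control. Kcne2 was at least 24.4-fold higher in ULC and at least 129-fold in control, with 0 UMIs in ependymal-like cells of both.

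Between the libraries, the largest difference among the 9 genes was in Kl. Over all plexus cells, its log2 ratio to control was 4.25 (3.75 to 4.80) in ULI and 3.79 (3.29 to 4.34) in ULC, that is 19.0-fold and 13.8-fold. The control value rests on 32 UMIs in 43 cells. In plexus-cluster cells alone, control had 31 Kl UMIs in 23 cells (120 CPM), and the ratios were 3.42 (2.91 to 3.98) and 2.96 (2.45 to 3.52). Kl was past 2-fold in both comparisons under each of 13 alternative choices. Both comparisons share the 1 control library, so they are not independent of each other.

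Enpp2 was also higher in the UL libraries, with log2 ratios of 1.63 (1.60 to 1.66) in ULI and 1.35 (1.32 to 1.38) in ULC. Without the 20 control cells of the ependymal cluster, Enpp2 in control was 37416 CPM in place of 21405 and the ratios were 0.83 and 0.55, both within 2-fold. Ttr itself, on the scale that defines the cells, had ratios of -0.13 and 0.31. Clic6 had ratios of 0.50 and 0.31, and Igfbp2 of 0.03 and 0.72, all within 2-fold.

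The transport genes gave no common direction. The folate receptor gene Folr1 had a log2 ratio to control of -1.27 (-1.72 to -0.83) in ULI and 1.49 (1.17 to 1.83) in ULC. Aqp1 had ratios of -0.68 and 0.47, Kcne2 of 0.37 and -0.23, and Slc4a5 of -0.69 and -0.12. In plexus-cluster cells alone Aqp1 had -1.43 and -0.29 and Kcne2 -0.44 and -1.03, so that the sign of Aqp1 in ULC and of Kcne2 in ULI turned. Slc4a5 in ULI was then at -1.03, and Folr1 had -0.84 and 1.93, so that Folr1 in ULI was within 2-fold.

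In counts, 2 of the 9 measured genes were at least 2-fold higher in ULI than in control (Enpp2 and Kl) and 1 was lower (Folr1), where 8.24% and 10.8% of all genes were. In ULC, 3 were higher (Enpp2, Kl and Folr1) and 0 lower, where 16.7% and 11.1% of all genes were. In plexus-cluster cells, 1 gene was higher (Kl) and 2 lower (Aqp1 and Slc4a5) in ULI, against 12.4% and 7.67% of all genes, and 2 were higher (Kl and Folr1) and 1 lower (Kcne2) in ULC, against 19.7% and 8.7%. Counts this small do not set the 9 genes apart from the background.

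The comparison of the 2 sides of the operated mice does not use the control library. Of the 9 genes, 0 were at least 2-fold higher in ULI than in ULC and 2 were lower, against 2.8% and 16% of all genes. Folr1 had a log2 ratio of -2.76 (-3.08 to -2.46) and Aqp1 of -1.15 (-1.35 to -0.95), and both were past 2-fold in each of the 13 alternatives. Kl was within 2-fold, at 0.46 (0.37 to 0.55), as was Enpp2 at 0.28. Library preparation and side of the brain cannot be told apart with 1 library each.

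**Figure D2:**
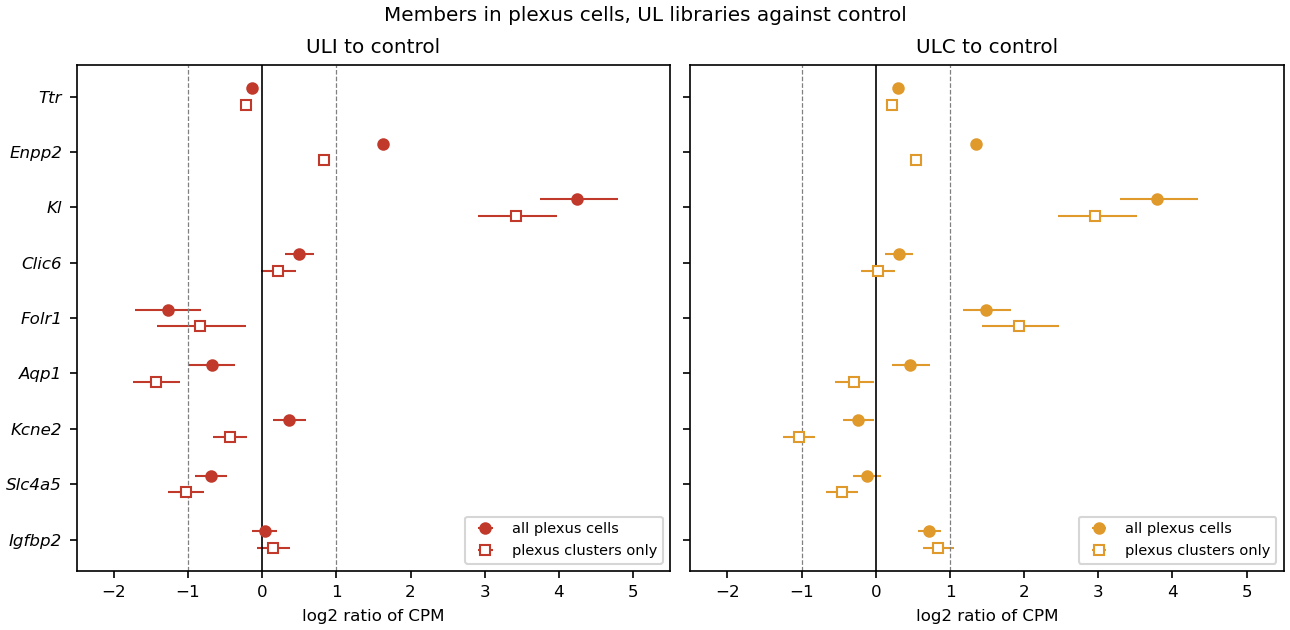
Log2 ratio of CPM to the control library for 9 genes in ULI and ULC plexus cells, with 95% counting intervals. Filled circles take all plexus cells, open squares only plexus-cluster cells, and dashed lines mark 2-fold. Kl lies above 2.9 in all 4 positions, and the Enpp2 squares, at 0.83 and 0.55, lie inside the dashed lines.

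Among single cells the genes varied widely. In the deep plexus cluster, Kl ranged per cell over 0, 1055 and 10667 CPM (lowest, median and highest) in ULI and 0, 779 and 3623 CPM in ULC, against 0, 0 and 581 CPM in control. At least 1 Kl UMI was found in 94.7% of ULI cells (125 of 132, 89.4 to 97.8%), 86.6% of ULC cells (259 of 299, 82.2 to 90.3%) and 35.0% of control cells (7 of 20, 15.4 to 59.2%). The control cells were the deepest. Thinned to 1000 UMIs, the shares were 66.2% of 130 ULI, 53.0% of 283 ULC and 10.53% of 19 control cells. Microglia-like cells, which should lack the gene, held a Kl UMI in 0.550% of ULI cells, 0.415% of ULC cells and 0 of 1725 control cells, at medians of 2236, 2360 and 3074 UMIs.

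Enpp2 was found in every deep-cluster cell, and in 20.7% of ULI, 49.6% of ULC and 15.1% of control microglia-like cells. It ranged over 10268, 68909 and 143108 CPM in ULI, 2469, 56650 and 137753 in ULC and 4742, 38817 and 77619 in control, with overlapping ranges. Folr1 had a median of 0 CPM in ULI, 400 in ULC and 104 in control, and a UMI in 31.1%, 76.3% and 75% of cells. After thinning these shares were 6.15% of 130 ULI, 36.7% of 283 ULC and 5.26% of 19 control cells. The control share rests on few cells, and thinning all control plexus-cluster cells gave 10.53% of 19. Summed over deep-cluster cells, Folr1 had 68.6 CPM in ULI, 524 in ULC and 129 in control. Kcne2 had a UMI in 87.9% of ULI, 77.9% of ULC and 100% of control deep-cluster cells, with medians of 516, 312 and 766 CPM. In microglia-like cells, Folr1 and Kcne2 UMIs were found in 0 and 0.220% of ULI cells, 0.415% and 0.207% of ULC cells, and 0 control cells. The per-cell medians of Aqp1 were 97.6 CPM in ULI, 309 in ULC and 505 in control.

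The deep and shallow plexus clusters, which differ more than 10 times in median depth in ULI, ULC and control, held each of the 9 genes within 2-fold of each other in ULI and ULC. In ULC, Enpp2 had 54783 CPM in the 299 deep cells and 54301 CPM in the 740 shallow cells, with a log2 ratio of 0.01, and Kl had 927 and 984 CPM (-0.08, -0.21 to 0.04). Clic6 differed most in ULC, with 767 CPM in deep and 453 CPM in shallow cells (0.76, 0.58 to 0.94). In ULI, Kl had 1316 CPM in deep and 995 CPM in shallow cells. A further 22 ULI, 62 ULC and 4 control cells lay in the plexus clusters with Ttr under the cutoff. The 22 ULI cells had Enpp2 at 68199 and Kl at 1451 CPM, and the 62 ULC cells had Enpp2 at 46822 and Kl at 1147 CPM, near the plexus levels of both genes. Ttr was at 35795 CPM in these ULI cells and 39433 in these ULC cells, low by the choice of cells and not as a result. The 4 control cells held 164 Enpp2 UMIs and 1 Kl UMI.

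The 20 control plexus cells that fell in the ependymal cluster carried some of these genes and little of others. Their depth was high, with a median of 10593.5 UMIs, 12.7% mitochondrial UMIs against 16.3% in the deep plexus cluster, and 0 doublet calls. Scrublet called only 44 of the 4607 control cells, so 0 calls among 20 cells say little about doublets. All 8 ependymal markers on the list were lower in them than in the other control ependymal-like cells, to very different degrees. Tmem212 and Ccdc153 had 36.9 and 115 CPM, against 2218 and 1342 CPM. The ciliary genes Dynlrb2 and Pifo had 521 and 212 CPM, against 906 and 394 CPM, and Rsph1 and Foxj1 had 258 and 198 CPM, against 770.1 and 776 CPM. All 8 were also higher than in control plexus-cluster cells, where Dynlrb2 had 144 and Pifo 81.6 CPM, although Rarres2 and Tekt1 rest on 1 and 3 UMIs. Of the 9 plexus markers, 6 were lower and 3 higher than in control plexus-cluster cells. Otx2 had 978 CPM and Cldn2, the claudin of leaky epithelia, 991 CPM, against 1422 and 688 CPM. Sostdc1 had 604 against 2643 CPM, Kcnj13 had 64.6 against 218 CPM, Prlr had 23.1 against 229 CPM and Tmem72 had 138 against 260.4 CPM, while 1500015O10Rik had 13030 against 5417 CPM. The cells are therefore named only by their rule, as Ttr-rich cells of the ependymal cluster. ULI had 1 such cell, which was within the top 5% of doublet scores, and ULC had 5, of which 0 were. The comparison of these cells with the 23 control plexus-cluster cells is a description, since genes of both were used to cluster them, apart from the 10 members.

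Ttr was within 2-fold, at 104939 CPM in the Ttr-rich cells of the ependymal cluster and 121447 CPM in plexus-cluster cells of the control library. Both sets were chosen for Ttr at 5% or more of UMIs, so this likeness is not a result. Enpp2 was 15.5-fold lower, at 2407 against 37416 CPM. Kcne2 was 15.7-fold lower, at 50.7 against 797 CPM, and Aqp1 9.06-fold lower, at 55.3 against 501 CPM. Kl had 1 UMI, 4.61 CPM (0.117 to 25.7), against 31 UMIs, 120 CPM. The potassium channel subunit, the water channel, klotho and autotaxin were thus all low in these cells.

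Igfbp2 and the other transport genes were within 2-fold. Igfbp2 had 895 against 758 CPM, with a log2 ratio of 0.24 (-0.05 to 0.53). Clic6 had 415 against 692 CPM (-0.74), Slc4a5 had 410 against 762 CPM (-0.89) and Folr1 had 226 against 128 CPM (0.82). Of the 1496 genes with enough UMIs in this comparison, 14.8% were at least 2-fold higher and 9.83% lower. Of the members with enough UMIs, which include Ttr, 0 were higher, and Enpp2, Kcne2 and Aqp1 were lower. Kl had too few UMIs in this comparison to be counted. The separation was also seen cell by cell. Enpp2 was under 1% of UMIs in all 20 Ttr-rich cells (median 0.103%, highest 0.984%), against 2 of 20 in the deep plexus cluster of control (0.474, 3.88 and 7.76% as lowest, median and highest). Igfbp2 was found in 85.0% of the Ttr-rich cells and Kcne2 in 15%, against 0 of 1725 control microglia-like cells for both.

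**Figure D3:**
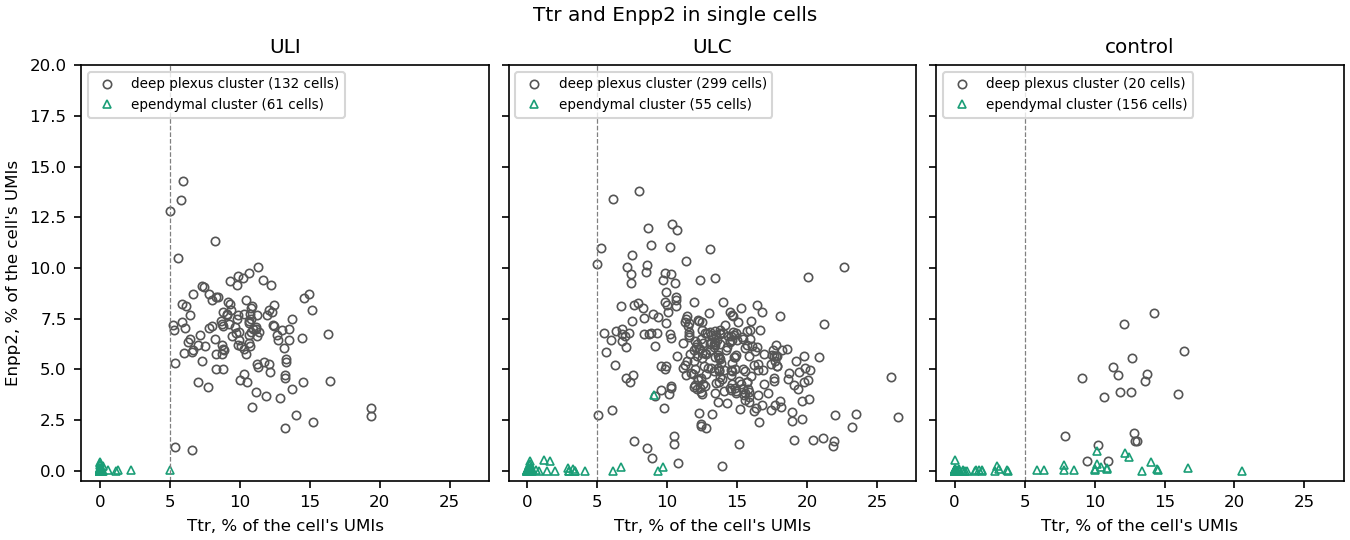
Enpp2 against Ttr, each as percent of the UMIs of a cell, for cells of the deep plexus cluster and of the ependymal cluster in ULI, ULC and control. Each point is a cell and the dashed line is the 5% Ttr cutoff. In control, the 20 Ttr-rich cells of the ependymal cluster lie to the right of the line with Enpp2 under 1%, and 18 of 20 deep plexus cells lie above that level.

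Of 44 measured genes on 6 lists of other plexus genes, 12 were at least 2-fold lower and 5 at least 2-fold higher in the Ttr-rich cells, and 27 were within 2-fold. Over all 1496 genes measured in this comparison, 9.83% were lower and 14.8% higher. The lower ones included the prolactin receptor gene Prlr (log2 ratio -3.31), the serotonin receptor gene Htr2c (-2.80), the BMP and WNT antagonist gene Sostdc1 (-2.13) and the carbonic anhydrase gene Car2 (-1.88). The higher ones were the zinc transporter gene Slc39a4 (2.10), the growth factor gene Mdk (2.09), the sodium pump subunit gene Atp1b2 (1.67), the cilia regulator gene Foxj1 (1.28) and 1500015O10Rik (1.27).

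To show what lies before the genes that were low in these cells, and before Igfbp2, which was not, the 250 bases before the start of Kl, Aqp1, Kcne2 and Igfbp2 were read from the RefSeq table for GRCm38.p6 (mm10). The table had an entry for 6 of the 10 members. The windows were chr5:150952357-150952606 for Kl, chr6:55336049-55336298 for Aqp1, chr16:92292139-92292388 for Kcne2 and chr1:72824230-72824479 for Igfbp2, all on the + strand, and the GENCODE annotation places no exon in them. They were searched on both strands for GGATTA (the core bound by OTX2), GTAAACA (forkhead) and GTTGCC (the X-box part bound by RFX factors), and capitals mark a match.
Kl: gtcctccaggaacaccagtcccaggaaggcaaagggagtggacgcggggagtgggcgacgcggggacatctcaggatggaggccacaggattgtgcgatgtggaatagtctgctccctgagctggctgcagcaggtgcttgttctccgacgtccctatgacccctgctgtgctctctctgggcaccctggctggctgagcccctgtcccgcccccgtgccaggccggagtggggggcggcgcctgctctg
Aqp1: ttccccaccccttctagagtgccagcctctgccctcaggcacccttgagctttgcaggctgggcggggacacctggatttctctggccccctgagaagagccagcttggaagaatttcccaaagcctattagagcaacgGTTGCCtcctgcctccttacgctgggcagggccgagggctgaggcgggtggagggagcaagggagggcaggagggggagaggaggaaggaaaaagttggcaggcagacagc
Kcne2: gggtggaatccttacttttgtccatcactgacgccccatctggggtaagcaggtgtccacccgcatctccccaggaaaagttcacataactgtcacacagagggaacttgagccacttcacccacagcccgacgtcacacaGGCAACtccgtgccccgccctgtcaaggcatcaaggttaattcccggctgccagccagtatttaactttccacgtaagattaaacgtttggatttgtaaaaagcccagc
Igfbp2: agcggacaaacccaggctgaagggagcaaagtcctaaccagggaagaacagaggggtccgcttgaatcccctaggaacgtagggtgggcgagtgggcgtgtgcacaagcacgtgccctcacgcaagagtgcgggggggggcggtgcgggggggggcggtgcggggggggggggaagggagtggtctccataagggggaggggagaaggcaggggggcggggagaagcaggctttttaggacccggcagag
GTTGCC was found 111 bases before the start of Aqp1 and, on the reverse strand as GGCAAC, 109 bases before that of Kcne2. None of the 3 motifs was found in the windows of Kl and Igfbp2. Among 32851 windows of 250 bases, 6.25% held GGATTA, 3.17% GTAAACA and 10.4% GTTGCC on either strand. The matches are a description of the letters and not of binding.

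The ependymal-like cells proper, with Ttr under the cutoff, repeated part of this pattern. The 10 control cells of this class with Ttr between 1 and 5% of UMIs had Clic6 at 271 CPM, Igfbp2 at 212, Folr1 at 94.3 and Slc4a5 at 82.5 CPM, while Kl had 1 UMI and Aqp1 and Kcne2 had 0. The 11 ULC cells of this kind had Clic6 at 514, Folr1 at 399 and Igfbp2 at 314 CPM, with 0 Kl and Kcne2 UMIs and 1 of Aqp1. In cells with Ttr under 1%, Clic6 was at 27.6 CPM in ULI, 58.5 in ULC and 30.1 in control, and Slc4a5, Aqp1 and Kcne2 had 0 UMIs in all 3 libraries. Per 1000 Ttr UMIs, Clic6 was 5.72 times its plexus value in ULI ependymal-like cells, 4.52 times in ULC and 3.81 times in control, and Folr1 was 4.11 times in ULC and 4.6 times in control. Enpp2 was 0.305, 0.334 and 0.520 times. The rule places cells with high Ttr in the plexus class and takes them out of the ependymal-like class, which by itself raises these ratios. In CPM, Clic6 and Folr1 were lower in ependymal-like than in plexus cells in all 3 libraries.

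Outside plexus and ependymal-like cells, Ttr was at 189 CPM in ULI, 924 in ULC and 42.0 in control. RNA that spreads from 1 source keeps its genes in 1 ratio, so each gene was set against Ttr. Over all other cells, Kl per Ttr was 1.12 times its plexus value in ULI and 1.28 times in ULC, and Clic6 was 0.919 and 0.659 times. The ratio of Folr1 in ULC was 0.881 times. The counting intervals of these Kl and Folr1 ratios included 1, and that of Clic6 did so in ULI. In control, Kl per Ttr was 34.7 times (log2 5.12, 4.26 to 5.94) on 22 UMIs, 20 of them in fibroblast-like cells, and Clic6 and Folr1 rest on 3 and 2 UMIs. Enpp2, by contrast, was 16.9 times in ULI, 5.35 times in ULC and 439 times in control. Igfbp2 was 3.21 times in ULI (log2 1.68, 1.33 to 2.02), 1.24 times in ULC and 28.3 times in control. The control plexus values in all ratios to Ttr include the 20 Ttr-rich cells of the ependymal cluster. Per 1000 Ttr UMIs, Enpp2 was 188 over all control plexus cells and 308 in plexus-cluster cells alone. Kl was 0.592 and 0.992, and Igfbp2 7.20 and 6.24. Without the 20 cells, the control ratios of Enpp2 and Kl would be lower and that of Igfbp2 higher.

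Most Enpp2 UMIs of all other cells lay in oligodendrocyte-lineage cells and in an unnamed cluster. Mature oligodendrocyte-like cells had 5018 CPM in ULI, 3880 in ULC and 4753 in control, new ones 2080, 1773 and 1944, and precursor-like cells 1178, 1251 and 958. A cluster that its markers left unnamed, and whose leading genes were Anln, Ermn and Klk6, had 3893 CPM in ULI and 5720 in control and held 74.9% of all Enpp2 UMIs of the control library. Plexus cells held 70.1% of Enpp2 UMIs in ULI, 88.7% in ULC and 10.3% in control. Microglia-like cells had Enpp2 per Ttr at 0.993 times the plexus value in ULI and 1.0 times in ULC, but 8.20 times in control. That control ratio, too, would be lower without the Ttr-rich cells of the ependymal cluster.

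Igfbp2 was also found in other classes. Astrocyte-like cells had 65.4 CPM in ULI, 60.9 in ULC and 89.8 in control, which per Ttr was 20.8 times the plexus value in ULI and 1.98 times in ULC. Fibroblast-like cells had 319 CPM in ULI, 370 in ULC and 884 in control, 14.0 times in ULC. Kl reached the threshold in precursor-like cells of ULC, 4.18 times with 22 UMIs, of which 14 lay in 1 cell. Control fibroblast-like cells held 20 Kl UMIs in 10 of 27 cells, or 131 CPM (80.0 to 202), an interval that overlaps that of control plexus cells.

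**Figure D4:**
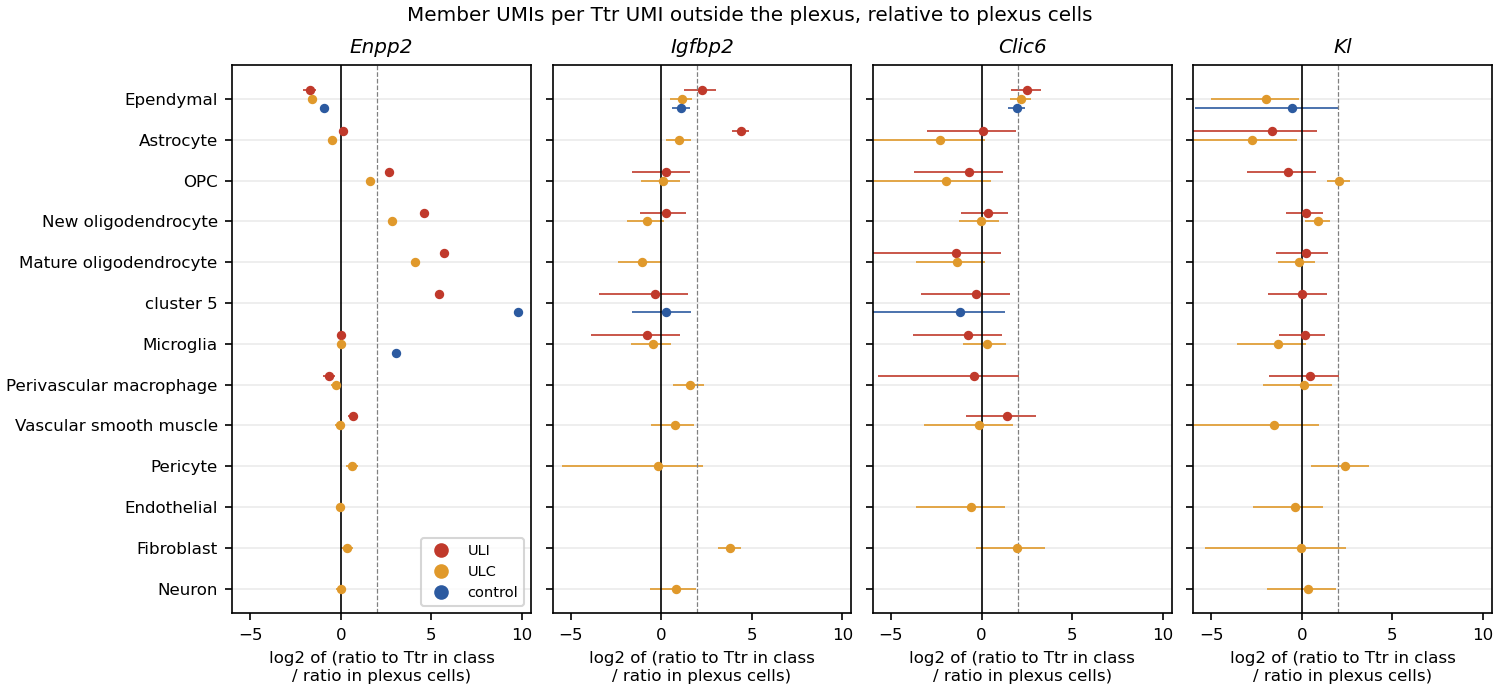
Ratio of Enpp2, Igfbp2, Clic6 and Kl to Ttr in each cell class, divided by the same ratio in plexus cells of the same library, on a log2 scale. Only classes with at least 100 Ttr UMIs are drawn, 9 in ULI, 12 in ULC and 3 in control, and the dashed line marks 4 times. Enpp2 lies above it in the drawn oligodendrocyte-lineage classes, except in ULC precursor-like cells, at 3.02 times. It also lies above the line in control microglia-like cells, at 8.20 times. Control plexus cells here include the 20 Ttr-rich cells of the ependymal cluster. Igfbp2 lies above it in ULI astrocyte-like cells, at 20.8 times.

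Other plexus genes were counted on 6 lists of 62 genes, of which 61 are in the table. Of those measured, 34 of 54 in ULI, 35 of 57 in ULC and 35 of 51 in control were at least 10-fold higher in plexus cells than in all other cells. Slc12a2, the sodium, potassium and chloride cotransporter, had 1686 CPM in ULI, 1710 in ULC and 820 in control plexus cells and was 1.82-fold and 2.38-fold higher than in all other cells in ULI and ULC. Ezr, the membrane linker ezrin, had 1556, 1400 and 2046 CPM, and the tight junction gene Cldn2 573, 416 and 827 CPM. Between the libraries, 11 of 50 list genes were at least 2-fold higher and 10 lower in ULI than in control, 13 of 54 higher and 9 lower in ULC than in control, and 0 higher and 12 lower of 54 in ULI than in ULC. The background shares are those given for the members.

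Single list genes moved as far as some members. Sostdc1 had 811 CPM in ULI and 546 in ULC, against 1710 in control, with log2 ratios of -1.08 and -1.65, and of -1.70 and -2.27 in plexus-cluster cells. Slc12a2 had ratios of 1.04 and 1.06. Foxj1 had 22.3 CPM in ULI, 131 in ULC and 135 in control, and was at least 2-fold lower in ULI than in ULC, at -2.56. Krt18, a keratin of simple epithelia, had ratios to control of 2.43 and 3.37.

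By pattern across 43 sums of class and library, the genes most like the mean of the members were Kcnj13, a potassium channel gene (r = 0.87), Wfikkn2 (0.87), Otx2 (0.86), Defb11 (0.86), Frmpd1os (0.85), Gmnc (0.84), Prcd (0.84), Car12 (0.84), Sostdc1 (0.83) and 1500015O10Rik (0.83), among 3638 genes. The sums share libraries and depth, and the coefficients are a description. Kcne2 (chr16, 92292389 to 92298129) and Clic6 (chr16, 92485736 to 92541243) lie near each other. Folr1 overlaps Anapc15 and Enpp2 overlaps Gm26684, each on the opposite strand, with 440 and 414 UMIs in the table. Clic6 overlaps 2410124H12Rik (5 UMIs) on the same strand, so reads in that overlap cannot be assigned with certainty. How reads in overlaps were counted is not given in the sources used here.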

How the data were processed

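Single-cell suspensions of the medial vestibular nucleus were sequenced in 1 ULI, 1 ULC and 1 control library, each pooled over mice. The authors deposited 1 table of raw UMI counts (genes by barcodes, whole numbers, not normalized). The submitters' processing notes name CASAVA 1.8, UMI-tools, Seurat and the mm10 assembly. Which aligner and gene annotation were used, and how barcodes were called cells, is not given in the sources used here. Columns were assigned to libraries by their name prefix (VN for control).

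Barcodes with under 200 genes (912) were left out. Cells were clustered (10000 counts per cell, log scale, 2000 variable genes without the 10 members, 30 components, 20 neighbours, Leiden resolution 1, seed 1), and the 27 clusters were named from markers of 19 classes. Doublets were kept. Scrublet called under 0.5% in ULI and ULC, so the top 5% of scores stood for doublets there. UMIs were summed over the cells of a class in each library. Levels have exact Poisson, shares Clopper-Pearson and ratios exact conditional binomial intervals. A ratio was called at a log2 size of at least 1 among genes with at least 50 UMIs in both sets together. A set at 0 UMIs was put at a floor of 3 counts, and its fold is a bound. Ratios to Ttr needed 100 Ttr UMIs in a class, and a class was named at 4 times the plexus ratio with at least 20 UMIs of the gene. The ratio code was tested on simulated data.

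Named are all 10 members, up to 4 genes of each of 6 lists with the most plexus UMIs, and the 10 genes most like the members by Pearson r among genes with at least 200 plexus UMIs. List genes named for the Ttr-rich cells of the ependymal cluster, and classes named below the thresholds, were chosen after their values were seen. A list gene that this rule takes in is not reported here. Members and lists were chosen with earlier results of these data known. Alternatives were a Ttr cutoff of 2 or 10%, clusters in place of the cutoff, at least 500 genes, at most 20% mitochondrial UMIs, doublets out, totals without Ttr, 2 other scalings, means over cells, thinning to 1000 UMIs, other clusterings and Enpp2 as the scale. The settings with plexus-cluster cells only, the deep cluster only and no Ttr minimum were added after seeing the data. Software was Python 3.11.15 (numpy 2.4.6, scipy 1.17.1, pandas 2.3.3, scikit-learn 1.9.0, matplotlib 3.10.9, scanpy 1.11.5, igraph 0.11.9, anndata 0.12.19 and leidenalg 0.10.2). Scaling factors came from edgeR 4.0.16 (TMM) and DESeq2 1.42.0 (median of ratios) under R 4.3.3.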

Additional observations from a re-analysis of the deposited data

Results flagged for a closer look

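For 4 genes the log2 ratio to control in plexus cells had one sign in ULI and the other in ULC. Folr1, the folate receptor gene, was at -1.27 in ULI and 1.49 in ULC. Aqp1, the water channel gene, was at -0.68 and 0.465, Kcne2, the potassium channel subunit gene, at 0.365 and -0.234, and Ttr, whose level also chose the cells, at -0.131 and 0.305. With 1 library per group the difference between the sides was not tested, and both ratios share the control library. In plexus-cluster cells alone, Aqp1 was negative in both (-1.43 and -0.29), as was Kcne2 (-0.44 and -1.03), while Folr1 and Ttr kept opposite signs (-0.84 and 1.93, -0.22 and 0.22).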

How the results depend on the processing

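No paired analysis was possible because each group is 1 library of pooled mice and the labels give no replicate numbers. For the same reason no replicate could be left out. Under the alternatives, 119 of the main counts and shares stayed close and 22 moved. Of the log2 ratios of single genes and the like, 227 stayed close and 130 moved, and 0 of those past 2-fold changed sign. The ULI share of plexus cells was 2.93% at a 10% Ttr cutoff and 4.466% with at least 500 genes. The ULC share was 25.04% at 2%, 19.67% at 10% and 16.25% with at least 500 genes, and the control share was 0.5861% by clusters. Between ULI and control, genes at least 2-fold higher numbered 1 by clusters, 1 in plexus-cluster cells with Ttr at 5% or more and 1 in the deep cluster, and lower ones 2 at a 10% cutoff, 2 by clusters, 2 in plexus-cluster cells and 0 after thinning. Between ULC and control, lower ones numbered 1 by clusters and 1 in plexus-cluster cells. Pairs of gene and class at 4 times the plexus ratio to Ttr numbered 1 in ULI with Enpp2 as the scale, 2 in ULC at a 2% cutoff, 3 in ULC without doublets, 2 in ULC with Enpp2 as the scale, 4 in control at 2%, 4 in control with Enpp2 as the scale and 13 in control with no minimum of Ttr UMIs. The cause was not tested. By construction the cluster settings leave out the 20 control cells of the ependymal cluster, clusters in place of the cutoff also take in 4 control cells under it, and the deep cluster leaves out 3 more. The control values rest on 43 cells, and the Kl value in them on 32 UMIs.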
